A study of Mus musculus with 10 samples.

Results

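Genes of the cell cycle and of DNA replication were followed in RNA from whole brain of newborn mice (postnatal day 0), hybridised to 10 Affymetrix arrays with 12488 probe sets each. The genes were taken from a list of 57 by symbol: 51 of them had at least 1 probe set of their own, 72 probe sets in all, out of 12422 probe sets that are not controls. Monosomic animals, XO, had 39 chromosomes, and XX females had 40. The Paf cross, written C57BL/6J x C3H/Paf, gave the XmO group (named for a maternal X) and the XX_Paf group, with 3 arrays each. The In(X) cross, written In(X)/C3H x C57BL/6J, gave the XpO group (named for a paternal X) and the XX_InX group, with 2 arrays each. All 4 groups thus had a C57BL/6J and a C3H parent, and the labels name no treatment. The labels do not say whether an array holds 1 animal or a pool, or whether animals share litters, so the p-values below measure the spread between these samples, which may be technical.

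Cells enter division when cyclin D with Cdk4 or Cdk6, and then cyclin E with Cdk2, release E2F factors from the retinoblastoma proteins. E2F factors switch on the genes that load the Mcm helicase, prime and extend DNA and make deoxynucleotides. Cyclin A, cyclin B and Cdk1 then drive the cell into mitosis, where Plk1 and the Aurora kinases build the spindle and the Bub and Mad proteins delay anaphase until Cdc20 can activate the anaphase-promoting complex. In the newborn mouse brain, division goes on mainly in progenitors next to the ventricles, in glial precursors and in the external granule layer of the cerebellum, while most neurons have left the cycle. In whole brain RNA, fewer dividing cells and less of these RNAs per cell cannot be told apart.

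The genes were described in classes. The G1/S and replication class had 31 of 34 listed genes on the array, the mitotic class 16 of 19, and all 4 inhibitor or p53 target genes were present. No probe set, own or shared, was found for 5 genes (Ccnb1, Cdk6, Cdc25b, Bub1b and Pole), so that no expression value is given for them. Tyms, thymidylate synthase, had only 2 probe sets that it shares with a pseudogene and is given no value. After a filter on dim probe sets, 48 of the 51 genes were tested, 29 in the G1/S and replication class, 15 in the mitotic class and 4 inhibitors or p53 targets. Ccne2, Mcm6 and Bub1 were not. The values of Ccne2 and Mcm6 were at or below the brightest of 9 Y-linked probe sets, which should have no template in these animals and so mark background, on all 10 arrays. That background lay between 33.6 and 136.6 from array to array. Of the 51 genes, 40 were above it on every array and 9 fell at or below it on some arrays, most often Aurkb and Bub1 (7 arrays each) and Aurka (3). A gene is represented below by its brightest probe set, which is that of highest mean log2 intensity over the 10 arrays. Values are intensities on a linear scale and log2 fold changes are differences of mean log2 intensity fitted with limma.

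Promoter sequence, which the choice of genes did not use, was read for each class. Windows of 300 bases (250 before to 50 after each start site; RefSeq, build GRCm38.p6) were found for 48 of the 57 listed genes, 58 windows in all. Each was searched on both strands for the CCAAT box bound by NF-Y (CCAAT), for the cell cycle genes homology region, CHR (TTTGAA), at which repressor and activator complexes of mitotic genes bind, and for a core E2F motif (TTGGCGC or TTCCCGC). The CCAAT box was present in 88.2% of 17 windows of mitotic genes, in 45.7% of 35 windows of G1/S and replication genes and in 37.4% of 32851 windows of all genes. CHR was present in 70.6%, 17.1% and 17.9% of them, and 11 mitotic genes held CHR and CCAAT in 1 window. The E2F core was present in 17.6% of the mitotic, 45.7% of the G1/S and replication and 6.81% of all windows. Of 126 matches in these genes, 10 overlapped another match of the same window. The 2 Bub3 windows overlap each other, as do the 2 Cdc7 windows, so that some of their sites are counted in both. The windows of 3 mitotic genes, which have both CCAAT and CHR, and of 2 helicase genes, which have both CCAAT and E2F matches, are shown so that the motifs of either class can be seen in place, 5′ to 3′, with every match in capitals.
Cdk1 (chr10:69352863-69353162, minus strand): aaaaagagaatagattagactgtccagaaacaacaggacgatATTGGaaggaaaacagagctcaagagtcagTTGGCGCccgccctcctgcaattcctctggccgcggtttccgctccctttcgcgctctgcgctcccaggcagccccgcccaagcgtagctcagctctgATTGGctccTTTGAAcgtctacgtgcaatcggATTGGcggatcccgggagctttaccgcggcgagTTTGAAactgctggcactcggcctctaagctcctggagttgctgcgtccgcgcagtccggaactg
Ccnb2 (chr9:70421505-70421804, minus strand): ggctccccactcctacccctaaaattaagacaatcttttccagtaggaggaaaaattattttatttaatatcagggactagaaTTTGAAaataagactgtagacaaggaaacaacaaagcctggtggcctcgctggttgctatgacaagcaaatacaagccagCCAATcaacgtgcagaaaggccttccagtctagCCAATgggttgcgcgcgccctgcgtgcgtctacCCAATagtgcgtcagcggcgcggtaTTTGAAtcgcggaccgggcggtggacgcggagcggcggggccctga
Cdc20 (chr4:118437294-118437593, minus strand): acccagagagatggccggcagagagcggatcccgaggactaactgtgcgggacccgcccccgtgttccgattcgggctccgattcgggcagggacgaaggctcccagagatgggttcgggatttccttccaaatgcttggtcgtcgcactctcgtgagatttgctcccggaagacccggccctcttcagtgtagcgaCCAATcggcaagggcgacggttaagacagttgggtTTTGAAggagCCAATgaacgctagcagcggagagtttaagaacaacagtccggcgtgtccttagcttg
Mcm5 (chr8:75109259-75109558, plus strand): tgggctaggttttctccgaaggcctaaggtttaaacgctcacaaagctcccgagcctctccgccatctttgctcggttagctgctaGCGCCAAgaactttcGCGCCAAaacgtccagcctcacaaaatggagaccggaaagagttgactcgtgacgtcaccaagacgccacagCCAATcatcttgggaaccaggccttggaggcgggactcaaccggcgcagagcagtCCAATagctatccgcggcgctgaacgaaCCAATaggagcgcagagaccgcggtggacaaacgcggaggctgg
Mcm7 (chr5:138171834-138172133, minus strand): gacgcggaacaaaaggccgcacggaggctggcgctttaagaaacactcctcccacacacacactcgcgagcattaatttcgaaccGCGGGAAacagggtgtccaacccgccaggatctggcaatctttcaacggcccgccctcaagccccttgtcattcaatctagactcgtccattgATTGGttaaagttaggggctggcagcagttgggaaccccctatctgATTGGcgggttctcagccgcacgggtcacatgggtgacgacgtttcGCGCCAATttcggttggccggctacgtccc
A match describes these letters and not a bound site, and a window without one says nothing of the factor.

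**Figure D1:**
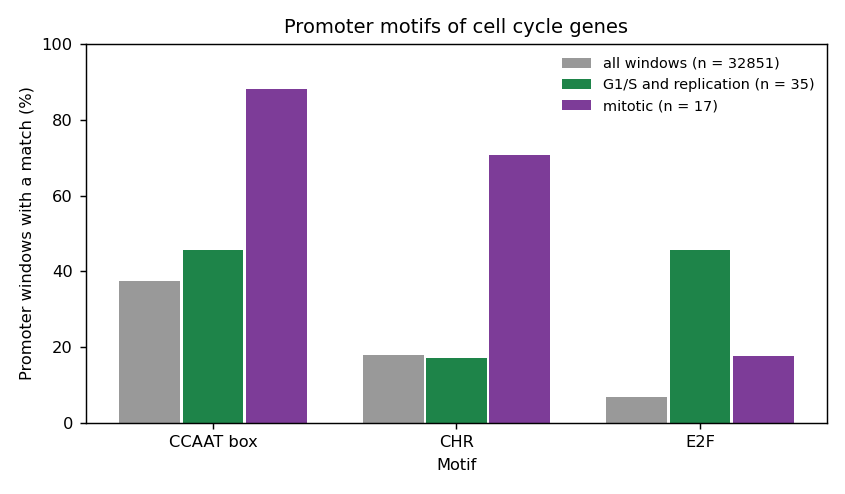
Share of promoter windows (y axis, percent) that hold a CCAAT box, CHR or E2F core (x axis), for 32851 windows of all genes (grey), 35 windows of G1/S and replication genes (green) and 17 windows of mitotic genes (purple). CHR and CCAAT stand highest in the mitotic windows (70.6% and 88.2%) and E2F in the G1/S and replication windows (45.7%).

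Trimmed means were 500.3 on all arrays, and pairs of arrays correlated at 0.927 to 0.969 (Pearson's r across probe sets, on log2 values; probe sets do not count as replicates). Xist, the RNA that coats the inactive X, was at 3300.1 to 4082 in XX_Paf, 1673 and 2671 in XX_InX, and 21.3 to 49.9 on the XO arrays, so that no array went against its label. Brain markers were present: all 7 neuronal markers and 6 of 7 neural progenitor markers were above the Y-linked background on every array. Atoh1, which defines granule cell precursors of the cerebellum, was at or below it on all 10 arrays. The 48 genes had a median within-group SD of 0.24 (log2), against 0.22 over all 6458 tested genes. Their highest and lowest arrays differed least for Bub3, a spindle checkpoint protein (1392 to 1623, 1.17-fold), Mcm5 (510.0 to 629, 1.23-fold) and Cdk4 (2508 to 3108, 1.24-fold). Ranges were wide for Pold2 (166 to 572, 3.44-fold) and Cdkn1a (260.2 to 805, 3.09-fold). Aurkb (47.1 to 243) and Cdc45 (69.5 to 230.4) also spanned wide ranges, but their lowest values were below the Y-linked background of their arrays, so no fold is given.

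**Figure D2:**
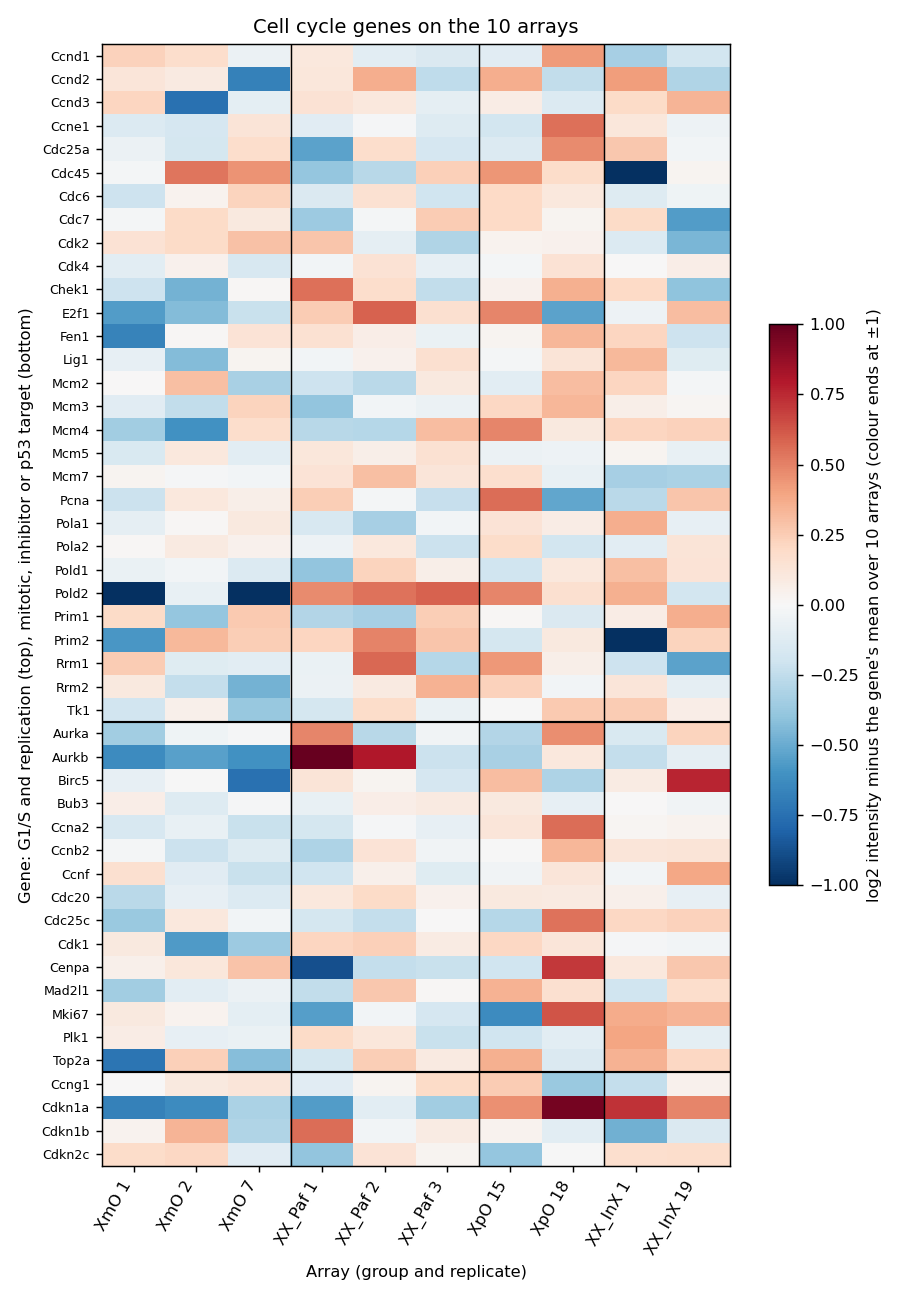
Log2 intensity of each of the 48 tested genes minus its mean over the 10 arrays (colour, ends at ±1), with arrays in columns by group and genes in rows by class. Cdkn1a is below its mean on all 6 arrays of XmO and XX_Paf and above it on all 4 of XpO and XX_InX.

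The first comparison asked what the loss of 1 X chromosome changes over both crosses. No gene of the list passed in XO against XX: 0 of 48 had an adjusted p under 0.05 (limma, Benjamini-Hochberg over all 8695 probe sets), where 0.0115% of all probe sets did, and 3 had an unadjusted p under 0.05, where 2.65% of 6458 genes did. The G1/S and replication genes had 15 lower and 14 higher estimates in XO, with a median log2 fold change of 0.00, against 0.00 for all genes. The mitotic genes had 12 lower and 3 higher, with a median of -0.05, and 49.8% of all genes had a lower estimate. The mitotic count of lower estimates was 9 without XpO 15 and 13 without XX_InX 1. No gene of the list kept XO and XX apart in the same direction in both crosses, where 0.542% of all genes did so with XO lower and 0.387% with XO higher.

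Among replication genes the estimates nearest the threshold went both ways. Cdc45, which joins the Mcm helicase when an origin fires, was at 157, 230.4 and 217 in XmO, 121, 131 and 187 in XX_Paf, 216 and 181 in XpO, and 69.5 and 162 in XX_InX. The lowest values were those of XX_InX 1 and XX_Paf 1. XmO and XX_Paf overlapped, whereas XpO was higher than XX_InX without overlap (XO against XX: 0.68, SE 0.25, adjusted p = 0.9995). XX_InX 1, at 69.5, was below the Y-linked background of that array (102.9). Cyclin D1 (Ccnd1), the G1 cyclin that growth signals induce, was at 788, 760.0 and 646 in XmO, 726, 625 and 609 in XX_Paf, 623 and 902 in XpO, and 533 and 591 in XX_InX. XX_InX was lower than XpO without overlap, whereas XmO and XX_Paf overlapped (XO against XX: 0.29, SE 0.13, adjusted p = 0.9995), and the dimmer Ccnd1 probe set had the opposite sign (-0.28). Cdk2, the kinase of cyclins E and A, was at 248, 257 and 274 in XmO, 272, 210.3 and 182 in XX_Paf, 229.8 and 231 in XpO, and 204 and 163 in XX_InX. Its ranges overlapped within the Paf cross and not within the other (XO against XX: 0.29, SE 0.16, adjusted p = 0.9995). Rrm1, the large subunit of ribonucleotide reductase, was at 260.0, 200.5 and 203 in XmO, 209, 326 and 179 in XX_Paf, 295 and 227 in XpO, and 189 and 151 in XX_InX, again higher in XpO than in XX_InX with the XmO and XX_Paf ranges overlapping (0.27, SE 0.20, adjusted p = 0.9995 for XO against XX).

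Among lower estimates in XO the smallest p-values were those of Pold2 (-0.55), whose values follow below, and of E2f1, the activating E2F factor, which was at 86.4, 93.8 and 109 in XmO, 152, 192 and 142 in XX_Paf, 178 and 87.4 in XpO, and 122 and 158 in XX_InX. All 3 XmO arrays were below all 3 XX_Paf arrays, while XpO 15 and XpO 18 lay on either side of both XX_InX arrays (XO against XX: -0.45, SE 0.24, adjusted p = 0.9995). This probe set carries the suffix _f, which marks probes shared within a sequence family. On XmO 7 its value was below the Y-linked background of that array (136.6). Cyclin D3 (Ccnd3) was at 641, 328 and 515 in XmO, 608, 593 and 517 in XX_Paf, 581 and 502 in XpO, and 631 and 697 in XX_InX, with XmO 2 the lowest array and both XpO arrays below both XX_InX arrays (XO against XX: -0.28, SE 0.16, adjusted p = 0.9995). Survivin (Birc5), a subunit of the chromosomal passenger complex, was at 127, 134 and 80.7 in XmO, 147, 138 and 120.4 in XX_Paf, 167 and 109 in XpO, and 143 and 229 in XX_InX, with overlap in both crosses (XO against XX: -0.35, SE 0.24, adjusted p = 0.9995). Its value on XmO 7 was also below the background of that array. Pola1, the catalytic subunit of DNA polymerase alpha and the X-linked member of the list, was at 144, 155 and 165 in XmO, 137, 122 and 151 in XX_Paf, 169 and 162 in XpO, and 197 and 145 in XX_InX. Its XO and XX ranges overlapped in both crosses (XO against XX: 0.07, SE 0.18, adjusted p = 0.9995, 95% interval -0.31 to 0.46).

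Within the Paf cross, XmO was set against XX_Paf. 0 of 48 genes passed by limma (0.0230% of all probe sets did) and 5 had an unadjusted p under 0.05, 4 lower and 1 higher (5.06% of all genes). Medians were -0.07 for the G1/S and replication genes and -0.06 for the mitotic genes, against 0.00 for all genes. The mitotic median was -0.18 without XX_Paf 3, and -0.034 without XX_Paf 2. With probe sets averaged the medians were -0.15 and -0.19, and with boundary genes moved the mitotic one was -0.18. Groups did not overlap for 5 genes with XmO lower (Aurkb, Cdc20, E2f1, Mcm7 and Pold2; 6.94% of all genes) and for 1 with XmO higher (Cenpa; 7.06%).

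Pold2, the small regulatory subunit of DNA polymerase delta, had the smallest p of the list. It was at 166, 360.5 and 170.1 in XmO, 527, 552 and 572 in XX_Paf, 532 and 423 in XpO, and 486 and 335 in XX_InX. XmO 1 and XmO 7 stood far below every other array and XmO 2 lay between them and XX_Paf. The means were 232 ± 111 in XmO and 550.2 ± 22.3 in XX_Paf (SD, n = 3 each; limma, log2 fold change -1.34, SE 0.27, adjusted p = 0.330). Without XmO 2 the log2 fold change was -1.71 (limma, adjusted p = 0.00662), the 1 setting in which Pold2 passed. Its single probe set is of the kind that Affymetrix marks with the suffix _r, for which a rule of probe choice was relaxed, and Pold1, the catalytic subunit of the same enzyme, had -0.04 (95% interval -0.42 to 0.34).

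E2f1 had -0.74, SE 0.30, adjusted p = 0.877 (limma), in the values given above, of which that of XmO 7 was below background. Cdk1, the kinase that starts mitosis, was at 381, 241 and 276 in XmO, 413, 421 and 377 in XX_Paf, 411 and 387 in XpO, and 354 and 349.8 in XX_InX. XmO 1 overlapped with XX_Paf and the other XmO arrays were the lowest of the 10 (limma, log2 fold change -0.46, SE 0.18, adjusted p = 0.877). Aurora kinase B (Aurkb) was at 47.1, 50 and 48.0 in XmO, 243, 127 and 62.9 in XX_Paf, 58.1 and 78.3 in XpO, and 61.9 and 68.6 in XX_InX. Its value in XX_Paf rested on XX_Paf 1 and 2, and all XmO arrays were below their Y-linked background, so that no size is given for the difference. Both XX_InX arrays were below theirs too, and in XO against XX and XX_Paf against XX_InX Aurkb, among the 5 smallest p-values of its direction, is likewise given no size. Cdc20, the activator of the anaphase-promoting complex, was at 417, 473 and 456 in XmO, 539.5, 572 and 517 in XX_Paf, 536 and 534 in XpO, and 519.5 and 474 in XX_InX. XmO was lower than XX_Paf without overlap (limma, -0.28, SE 0.13, adjusted p = 0.879).

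Higher estimates in XmO were led by Cenpa, the histone H3 variant that marks centromeres, at 299.7, 313 and 353 in XmO, 157, 246 and 248 in XX_Paf, 252 and 472 in XpO, and 312 and 349.8 in XX_InX. The XX_Paf arrays were the 3 lowest of the 10, and XpO 15 lay just above them (XmO against XX_Paf: limma, 0.60, SE 0.25, adjusted p = 0.877). Cdc45 (0.47), Cdk2 (0.25), Ccnd1 (0.16) and Cdkn2c (0.17) followed with overlapping groups. Mki67, the proliferation antigen Ki-67, showed how far 2 probe sets of a gene can differ: the brighter was at 168, 161 and 146 in XmO, 107, 154 and 139.6 in XX_Paf, 102 and 243 in XpO, and 202 and 198 in XX_InX and had 0.26. The dimmer was at 112, 114 and 115 in XmO, 235, 175 and 139 in XX_Paf, 174 and 149 in XpO, and 186 and 133 in XX_InX and had -0.66 (SE 0.26), with every XmO array below every XX_Paf array. By this dimmer probe set XmO 7 was below its Y-linked background (136.6). The brighter Mki67 probe set is of the _r kind described for Pold2, and the dimmer was above it on XX_Paf 1, XX_Paf 2 and XpO 15. Of the 8 genes with several tested probe sets, 6 had probe sets of opposite sign in this comparison (Ccnd1, Cdkn1a, Mcm3, Mki67, Pola2 and Pold1).

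Within the In(X) cross, XpO was set against XX_InX. 0 of 48 genes passed by limma (0.0115% of all probe sets) and 2 had an unadjusted p under 0.05, both higher (3.28% of all genes). Estimates were higher in XpO for 32 of 48 genes and lower for 16, where 52.1% of all genes were lower. The count of lower estimates was 18 without XpO 15, 22 without XpO 18, 19 without XX_InX 1 and 21 without XX_InX 19. Medians were 0.07 for the G1/S and replication genes and 0.04 for the mitotic genes, against -0.01 for all genes, and without XpO 18 they were 0.17 and -0.13. Groups of 2 arrays did not overlap for 11 genes with XpO higher (11.0% of all genes) and for 5 with XpO lower (12.1%). Mcm7, a subunit of the replicative helicase, was at 599.6, 586 and 579 in XmO, 649, 727 and 642 in XX_Paf, 661 and 561 in XpO, and 468 and 472 in XX_InX. The XX_InX arrays were the 2 lowest of the 10 and close together (XpO against XX_InX: limma, 0.37, SE 0.16, adjusted p = 0.9998). Cdc45 (0.90), Ccnd1 (0.42) and Rrm1 (0.62) followed, in the values given above, as did Ccna2 (0.31), given below. For Cdc45 XX_InX 1 was below background, and the log2 fold change ranged over 0.28 to 1.51 over the leave-outs. The dimmer Ccnd1 probe set had -0.37.

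Among the 5 genes described in each direction, lower estimates in XpO had the larger p-values. Cdkn2c, which encodes the Cdk4 and Cdk6 inhibitor p18, was at 394, 400.5 and 321 in XmO, 265, 382 and 354 in XX_Paf, 266 and 347 in XpO, and 389 and 392 in XX_InX (XpO against XX_InX: limma, -0.36, SE 0.23, adjusted p = 0.9998). Polo-like kinase 1 (Plk1) was at 464, 418 and 421 in XmO, 505, 479 and 378 in XX_Paf, 385 and 412 in XpO, and 580.1 and 412 in XX_InX (limma, -0.30, SE 0.21, adjusted p = 0.9998), by another probe set of the _f kind. Pold1 was at 418, 432 and 399 in XmO, 334, 512 and 456 in XX_Paf, 382 and 473 in XpO, and 539 and 482 in XX_InX (limma, -0.26, SE 0.21, adjusted p = 0.9998). Both XpO arrays were below both XX_InX arrays for all 3 genes, by less than 1 intensity unit for Plk1, and none passed. Ccnd3 had -0.30 and Birc5 -0.42. A second Pold1 probe set had 0.12.

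Origin of the single X from the mother or the father separates XmO from XpO, but so does the cross, and these cannot be told apart. In this comparison 37 of 48 genes had lower estimates in XmO, where 50.1% of all genes did, among them 23 of 29 G1/S and replication genes and 13 of 15 mitotic genes. The mitotic median was -0.26 and the G1/S and replication median -0.14, against 0.00 for all genes. That lean was already known for an overlapping list on these arrays and is no independent evidence. It was a lean of estimates only: 0 of 48 genes passed by limma (0.0115% of all probe sets) and 4 had an unadjusted p under 0.05, all lower (4.77% of all genes). The count of lower estimates was 32 without XpO 15 and 33 without XpO 18. The mitotic median was -0.40 without XpO 15 and -0.12 without XpO 18. Groups did not overlap for 9 genes with XmO lower (9.09% of all genes), of which 6 were mitotic (Aurkb, Ccna2, Ccnb2, Cdc20, Cdk1 and Mad2l1), and for 2 with XmO higher (Cdk2 and Plk1; 8.92%). For Aurkb all XmO arrays and XpO 18 were below their Y-linked background.

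Cyclin A2 (Ccna2), which acts in S phase and G2, was at 580.3, 618 and 558 in XmO, 576, 643 and 612 in XX_Paf, 704 and 954 in XpO, and 656 and 665 in XX_InX. XpO 18 was the highest array and XpO 15 the next, above all 6 arrays of the Paf cross and both XX_InX arrays (XmO against XpO: limma, -0.49, SE 0.16, adjusted p = 0.780, and -0.27 without XpO 18). Cyclin B2 (Ccnb2), a partner of Cdk1, was at 697, 609.8 and 646 in XmO, 572, 779 and 689.8 in XX_Paf, 707 and 889.5 in XpO, and 770.5 and 775 in XX_InX, with every XmO array below both XpO arrays (limma, -0.29, SE 0.17, adjusted p = 0.969). The Cdk1 values given above also did not overlap (limma, -0.44, SE 0.20, adjusted p = 0.969). Mcm4, a helicase subunit, was at 211, 176 and 304 in XmO, 222, 220.5 and 333 in XX_Paf, 377 and 287 in XpO, and 311 and 314 in XX_InX, where XmO 7 lay above XpO 18 (limma, -0.55, SE 0.27, adjusted p = 0.969). Pold2 had -1.13 (limma, SE 0.30, adjusted p = 0.685) and Cdc20 -0.26.

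Higher estimates in XmO than in XpO were found for 11 genes, none with an unadjusted p under 0.05. Cdkn2c had 0.28 (95% interval -0.17 to 0.73), Cdk2 0.17 and Plk1 0.12, while a second Plk1 probe set had -0.30 with the groups apart in the other direction. Cyclin G1 (Ccng1), a p53 target, was at 235, 250.3 and 256 in XmO, 217, 239 and 268 in XX_Paf, 279 and 181 in XpO, and 198 and 241 in XX_InX and had 0.13, turning to -0.18 without XpO 18. Prim1, the catalytic subunit of primase, was at 160.1, 108 and 169 in XmO, 115, 112 and 167 in XX_Paf, 142 and 127 in XpO, and 148 and 181 in XX_InX and had 0.09, turning to -0.03 without XmO 7.

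**Figure D3:**
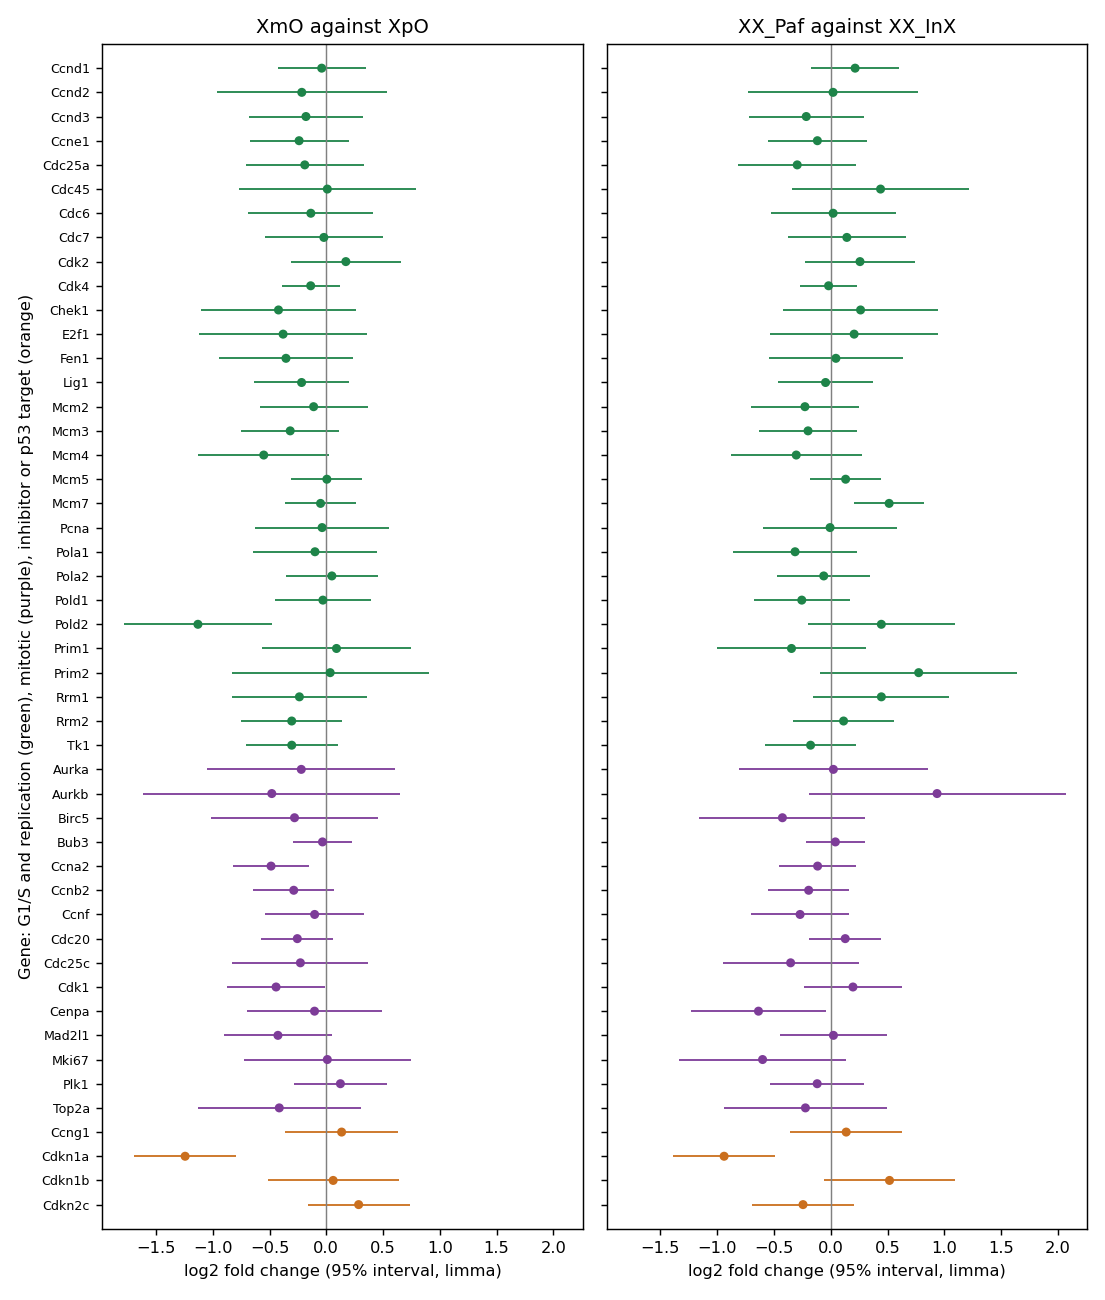
Log2 fold change with its 95% interval (x axis, limma) for each of the 48 tested genes (y axis) in XmO against XpO (left) and XX_Paf against XX_InX (right), which share no array; green marks G1/S and replication, purple mitotic, orange inhibitor or p53 target genes. Cdkn1a lies low in both panels (-1.24 and -0.94), whereas Pold2 is low on the left only (-1.13 and 0.45).

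In XX females the crosses were set against each other as XX_Paf against XX_InX, on arrays that the XmO and XpO groups do not hold. Here 25 of 48 genes had lower and 23 higher estimates in XX_Paf (52.0% of all genes lower). Medians were -0.12 for mitotic and 0.02 for G1/S and replication genes, against -0.01 for all genes. 0 genes passed by limma (0.0805% of all probe sets) and 3 had an unadjusted p under 0.05 (13.5% of all genes). Groups did not overlap for 8 genes with XX_Paf lower (18.9% of all genes) and 6 with XX_Paf higher (17.5%). The smallest p-values were those of Cdkn1a, described next, of Mcm7 (higher in XX_Paf, 0.51, SE 0.14, adjusted p = 0.185) and of Cenpa (lower, -0.64, SE 0.28, adjusted p = 0.334). Ccnf, cyclin F, was at 344, 284 and 263 in XmO, 268, 319 and 282 in XX_Paf, 300.2 and 335 in XpO, and 302 and 402 in XX_InX (-0.27 for XX_Paf against XX_InX). Cdkn1b, which encodes the inhibitor p27, was at 199, 245 and 157 in XmO, 286, 191 and 206 in XX_Paf, 199 and 180.2 in XpO, and 139 and 176 in XX_InX, with XX_InX lower than XX_Paf without overlap (limma, 0.52, SE 0.27, adjusted p = 0.411). Prim2, the large primase subunit, was at 88.7, 166 and 158 in XmO, 154, 187 and 161 in XX_Paf, 118 and 142 in XpO, and 61.4 and 155 in XX_InX, where XX_InX 1 was the lowest array (limma, 0.77, SE 0.40, adjusted p = 0.415). The Prim2 value of XX_InX 1 was below its Y-linked background (102.9), and the log2 fold change ranged over 0.11 to 1.44 over the leave-outs. Mki67 had -0.60 by its brighter and 0.18 by its dimmer probe set. Pold1 (-0.26) and Rrm1 (0.45) had overlapping groups. For Cdk4 the probe sets also parted, at -0.02 by the brighter and 0.72 by the dimmer.

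Cdkn1a, which encodes the p53-induced Cdk inhibitor p21, had the smallest p of the list in both contrasts of the crosses. Intensities of its brighter probe set were 260.2, 269 and 334 in XmO, 282, 386 and 327 in XX_Paf, 569 and 805 in XpO, and 684 and 581 in XX_InX. All 6 arrays of the Paf cross were below all 4 arrays of the In(X) cross, with a gap between 386 and 569. Means were 288 ± 40.3 in XmO and 332 ± 51.8 in XX_Paf (SD, n = 3 each), 687 ± 167 in XpO and 633 ± 72.8 in XX_InX (SD, n = 2 each). Neither contrast of the crosses passed alone: XmO against XpO gave -1.24, SE 0.21, adjusted p = 0.111, and XX_Paf against XX_InX gave -0.94, SE 0.21, adjusted p = 0.140 (limma). A mean of these 2 contrasts, added after the values were seen, gave the log2 fold change between the crosses over both karyotypes as -1.09, SE 0.15, adjusted p = 0.0103 (limma). With that contrast 1 of 48 genes passed (0.104% of all probe sets). Since the contrast was chosen on this gene, its p is no independent evidence of a split. The call ended in limma without XpO 18 (adjusted p = 0.0793), without a filter on dim probe sets (0.0819) and without the intensity trend (0.134), while the log2 fold change over the leave-outs ranged over -1.22 to -0.97.

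The second Cdkn1a probe set gave a smaller and less even difference. It was at 426, 362 and 351 in XmO, 246, 331 and 320.3 in XX_Paf, 354 and 469 in XpO, and 535 and 458 in XX_InX. On every XmO array it was above the first probe set. The first ranks as the brighter by its mean over all arrays, to which its high In(X) values contribute. Its choice to represent the gene is thus not independent of the split. By the second probe set XX_Paf was below XX_InX without overlap (-0.74, SE 0.20), but XmO and XpO overlapped (-0.11, SE 0.20). Over both karyotypes its log2 fold change was -0.42 (limma, adjusted p = 0.259). Between karyotypes Cdkn1a did not pass: XO against XX was -0.05 (95% interval -0.37 to 0.27) by the brighter and 0.04 (95% interval -0.27 to 0.34) by the dimmer probe set. Ccna2 was the other gene of the 48 whose crosses did not overlap, with the Paf cross lower (-0.30, SE 0.11, adjusted p = 0.303; limma). 1.50% of all genes had crosses apart with the Paf cross lower and 1.59% with it higher. Ccng1, another p53 target, had 0.14 (95% interval -0.21 to 0.49) between the crosses. Estimates were lower in the Paf cross for 34 of 48 genes, where 51.7% of all genes were, and 4 of 48 had an unadjusted p under 0.05 (12.7% of all genes). Mcm4 (-0.43), Ccnb2 (-0.24) and Cenpa (-0.37) were lower by estimate, and Mcm7 (0.23), Cdkn1b (0.29), Prim2 (0.40), Cdk2 (0.21) and Cdc45 (0.22) higher, all with crosses that overlapped. XX_InX 1 was below background for both Prim2 and Cdc45. The summed intensity of 8 measured erythroid markers also separated the crosses: it was 11753 to 17872 in XmO and 12172 to 17547 in XX_Paf, but 6648 to 7987 in XpO and 4566 to 6863 in XX_InX, and 4 of the 8 were above the Y-linked background on every array. Meninges and fibroblast markers summed to 4024 to 4737 in XX_Paf and 5085 to 5210.5 in XX_InX, without overlap, but 4006 to 4527 in XmO and 3668 to 5153 in XpO, with overlap. Choroid plexus markers summed to 2441 to 3316 in XX_Paf and 1988 to 2225 in XX_InX, without overlap, and to 1370.0 to 2640.0 in XmO and 986 to 1919 in XpO, with overlap. The part of these markers in the differences between the crosses was not tested.

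**Figure D4:**
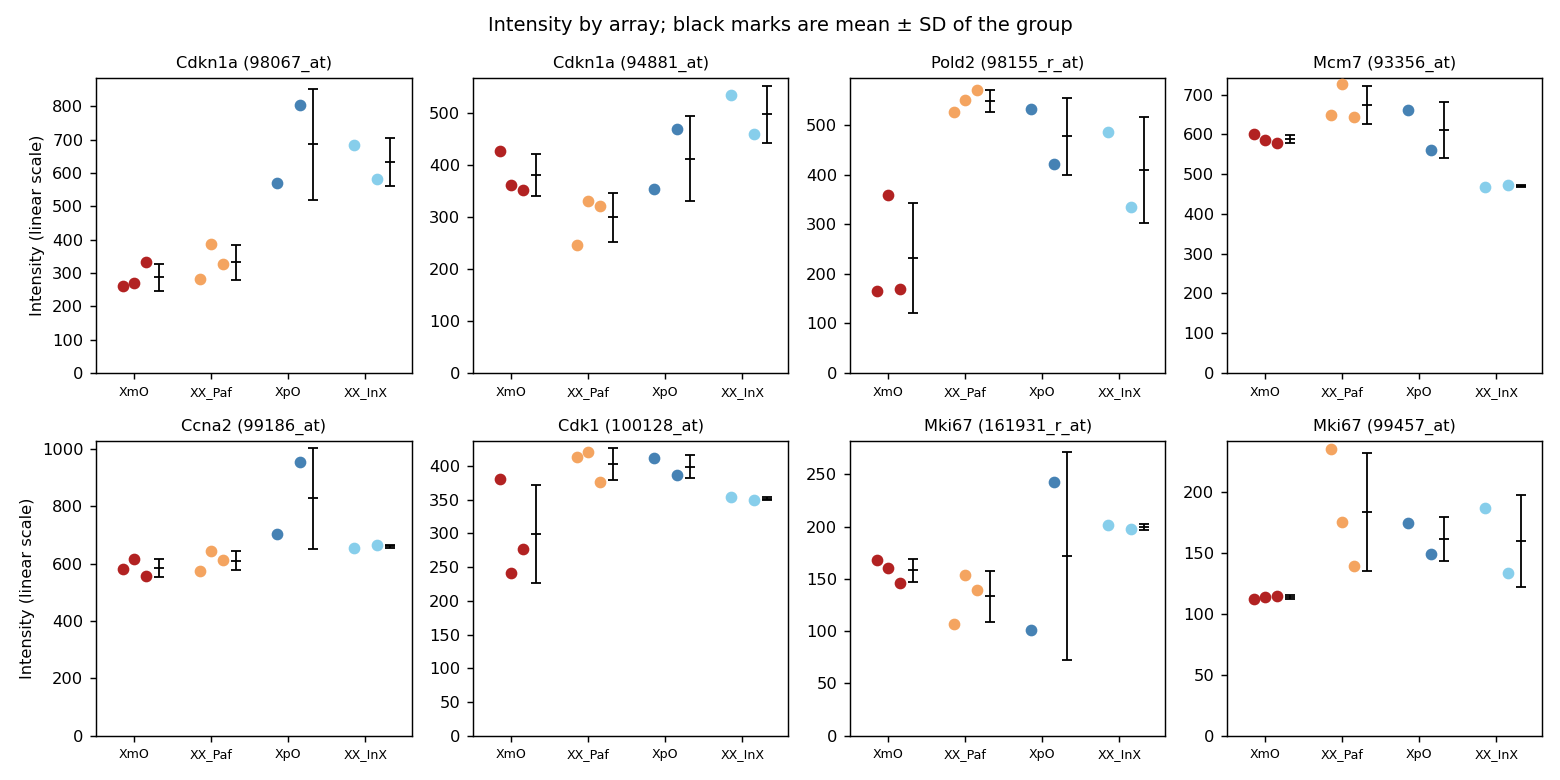
Intensity on a linear scale (y axis, from 0) on each array by group (x axis) for Cdkn1a and Mki67 (2 probe sets each), Pold2, Mcm7, Ccna2 and Cdk1; black marks give the mean ± SD. The brighter Cdkn1a probe set separates the Paf cross (260.2 to 386) from the In(X) cross (569 to 805), the second overlaps, and Pold2 is low on XmO 1 and XmO 7.

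The difference of the monosomy effects between the crosses was tested as an interaction. 0 of 48 genes passed by limma (0.0230% of all probe sets) and 3 had an unadjusted p under 0.05 (5.68% of all genes). The log2 fold change of XO over XX was lower in the Paf than in the In(X) cross for 34 of 48 genes (48.6% of all genes). Medians of this difference were -0.16 for G1/S and replication, -0.09 for mitotic and 0.01 for all genes. The mitotic median was -0.26 without XpO 15, -0.046 without XmO 2, and turned to 0.046 without XpO 18 and XX_InX 1 together. Pold2 had the smallest p: the log2 fold change of XO over XX was -1.34 for the Paf and 0.23 for the In(X) animals (a difference of -1.58, SE 0.42, adjusted p = 0.832; limma). For Mcm7 the effects were -0.19 and 0.37 (difference -0.56, SE 0.20, adjusted p = 0.832), and for Cdk1 -0.46 and 0.18 (difference -0.64, SE 0.28, adjusted p = 0.832; limma). In the other direction Cdkn2c had 0.17 and -0.36 (difference 0.53, SE 0.29, adjusted p = 0.857; limma). Cdc20 (-0.38) had a lower difference, and Cenpa (0.53), Mki67 (0.61), Prim1 (0.44) and Plk1 (0.24) had higher ones. Aurkb, lower by sign, was at or below background on all XmO and XX_InX arrays and gives no size. The dimmer probe set of Mki67 had -0.69 and the _g probe set of Plk1 -0.13.

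G1/S and replication genes and mitotic genes were then set side by side on each array. For each array the median over a class of the log2 intensity minus the gene's own mean was taken, relative to that of all tested genes. For the mitotic class it was -0.10, -0.09 and -0.14 in XmO, -0.17, 0.045 and -0.05 in XX_Paf, -0.0040 and 0.11 in XpO, and 0.02 and 0.16 in XX_InX. XmO was below XpO and below XX_InX on every array, and XX_Paf spread over both sides of 0. For the G1/S and replication class it was -0.09, 0.0032 and 0.01 in XmO, -0.04, 0.07 and -0.07 in XX_Paf, 0.07 and 0.08 in XpO, and 0.09 and -0.06 in XX_InX. Only XpO had both arrays above all XmO arrays in this class, and XX_InX fell on both sides of 0. The classes parted most on XX_InX 19, where the G1/S and replication value lay 0.21 below the mitotic one. Since these genes were chosen with results known, the values are a description and were not tested. The SD between replicates was 0.07 for the G1/S and replication class and 0.08 for the mitotic class.

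**Figure D5:**
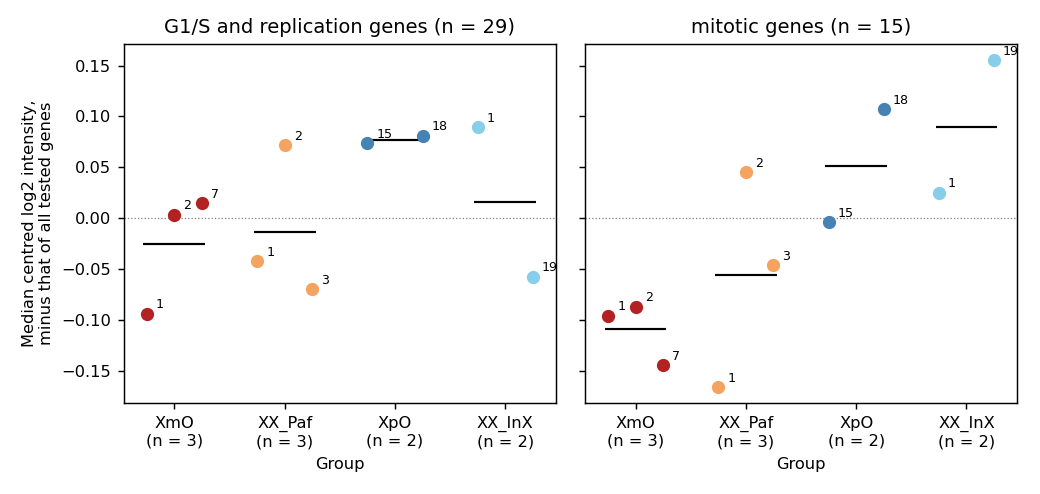
Median over each class of the log2 intensity minus the gene's mean over 10 arrays, relative to the same median over all tested genes (y axis), on each array by group (x axis); numbers are replicates and bars are group means. In the mitotic class the 3 XmO arrays lie below the XpO and XX_InX arrays, and in the G1/S and replication class the XX_InX arrays lie on both sides of 0.

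The other 21 tested genes were described by range. Those of the G1/S and replication class and their lowest and highest arrays were Pcna, the sliding clamp of the polymerases (564 to 1188), Cdk4 and Mcm5 (given above), Mcm2 (292 to 453.5), Mcm3 (241 to 399.9), Cdc6, a loader of the helicase (131 to 176), Cdc7, the kinase that starts origins (231 to 405), Ccne1 (486 to 809), Ccnd2 (99.0 to 210.4), Cdc25a (278 to 557), Chek1 (106 to 217), Rrm2 (291 to 515.5), Tk1 (329 to 512.5), Lig1 (316 to 537), Fen1 (127 to 255) and Pola2 (269.7 to 355). In the mitotic class they were Bub3 (given above), Mad2l1 of the spindle checkpoint (203 to 328), Aurka (74.1 to 132), Cdc25c (138.5 to 261) and Top2a, the topoisomerase that untangles sister chromatids (80.6 to 172). Estimates of these 21 lay between -0.26 and 0.22 for XO against XX, -0.38 and 0.15 for XmO against XX_Paf, -0.17 and 0.30 for XpO against XX_InX, -0.43 and 0.05 for XmO against XpO, and -0.35 and 0.26 for XX_Paf against XX_InX. In XmO against XpO the lowest of these estimates was that of Mad2l1 and the highest that of Pola2.

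A wider list of cell cycle genes, set by role, was read beside the members. It was chosen with earlier results of these data known and is no independent evidence of a lean. Of 90 genes 73 had a probe set and 61 were tested, and none passed by limma in any of the 7 comparisons, with 1 to 3 of 61 genes per comparison at an unadjusted p under 0.05, where 2.65% to 13.5% of all genes were. In XmO against XpO 39 of 61 had lower estimates (median -0.10). The smallest p was that of Kif23, a kinesin of cytokinesis, which was at 181, 119 and 142 in XmO, 196, 175 and 137 in XX_Paf, 209 and 259 in XpO, and 171 and 175 in XX_InX (limma, -0.68, SE 0.26, adjusted p = 0.969). Hat1, a histone acetyltransferase of newly made histones, was at 388, 114 and 265 in XmO, 496, 520.0 and 394 in XX_Paf, 414 and 622 in XpO, and 119 and 459 in XX_InX, with estimates of -1.16 here, -1.04 for XmO against XX_Paf and 1.12 for XpO against XX_InX, and Cdc23 (-0.51) and Smc4 (-0.45) were next. Groups did not overlap for 14 of the 61 genes with XmO lower and for 4 with XmO higher, beside the 9.09% and 8.92% of all genes given above. The 14 were Anln, Cdc23, Cks1b, Cks2, Hat1, Kif11, Kif20a, Kif22, Kif23, Rbl2, Rfc4, Rpa2, Smc4 and Ttk, and the 4 were Atm, E2f5, Orc2 and Pold3. For Kif11 and Ttk XmO 7 was below its Y-linked background. In XX_Paf against XX_InX the list had 30 lower and 31 higher estimates (median 0.00). Mdm2, the ubiquitin ligase that p53 induces and that degrades p53, was at 630.2, 548 and 678 in XmO, 674, 530.4 and 648 in XX_Paf, 572 and 447 in XpO, and 324 and 458 in XX_InX. It was higher in the Paf cross by estimate (0.67, SE 0.20, adjusted p = 0.192 for XX_Paf against XX_InX; limma), with the opposite sign to Cdkn1a, and over both karyotypes by 0.48 (limma, adjusted p = 0.209). In XO against XX 38 of the 61 had lower estimates, and the smallest p-values were those of the DNA damage kinase Atm (-0.42) and the origin recognition subunit Orc5 (-0.29). Within the Paf cross Orc6 was higher in XmO by estimate (0.41), and the condensin subunit Smc2 (-0.46) and the kinesin Kif2c (-0.50) were lower. XmO 7 was below its Y-linked background for Kif2c too.

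Markers of the cells that divide or dilute were given as summed intensities over each list. Neural progenitor markers summed to 15292 to 15924 in XmO, 15445 to 17593 in XX_Paf, 15672 to 17578 in XpO and 15169 to 16386 in XX_InX, and these ranges overlapped. Neuronal markers summed to 57061 to 62522 in XmO and 61266 to 66793 in XpO, also overlapping. The 6 measured granule precursor markers, with Atoh1 at background, summed to 5673 to 6479.6 in XmO and 5263 to 5273 in XpO, so that XmO was higher there. In the XX groups these sums overlapped, at 5654 to 7160 in XX_Paf and 4990.5 to 6242 in XX_InX. Of the 6 markers, 4 were above the Y-linked background on every array. Of 7 skeletal muscle markers, Myh3 and Tnni2 were at or below background on every array. The sum over the 7 was 725 to 3832 in XX_Paf and 579.7 to 852 in XpO, with XX_Paf 2 the highest array. The part of these lists in the cell cycle values was not tested.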

How the data were processed

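In the deposited table each array has 1 linear intensity for every probe set. The authors' summary of probes is not given in the sources used here, and equal trimmed means (2% at each end) show that the deposited intensities had been scaled to each other. They were used without further normalization. Of 12488 probe sets, 66 controls were left out. Symbols came from the platform's probe table (10833 probe sets with 1 symbol), and chromosomes from GRCm38.p6. Intensities under the 10th percentile (15) were raised to it and taken to log2, and the 8695 probe sets at or above the 30th percentile of mean log2 were tested. limma 3.58.1 (R 4.3.3) estimated 4 group means with an intensity trend and 6 residual degrees of freedom, two-sided, with Benjamini-Hochberg adjustment over all probe sets within each contrast and a threshold of 0.05. Groups came from the labels, per which no batch, litter or day is known. The number of arrays limits precision.

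The members, classes and lists were chosen with earlier results of these data known. By rule, the 5 genes of smallest p in each direction per contrast were described, with Ccna2, Cdk1, Mcm4, Cdc20, Cdkn1a and Pold2, and up to 4 of the wider list. The contrast over both karyotypes was added after seeing the data. On simulated data, 76% of probe sets with a log2 change of 1 were recovered for XmO against XX_Paf and 70% for XmO against XpO, each over 8695 probe sets. The change was put into 200 probe sets at once, and 10 unchanged probe sets were called in each comparison. With so many changed probe sets the adjustment is more lenient than in the deposited data. These shares therefore do not give the recovery of a single changed gene there. Alternatives were other normalization, floor, filter, variance prior, probe set choice, class boundary, leave-outs and a replicate block.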

Additional observations from a re-analysis of the deposited data

How the results depend on the processing

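The count of members that passed was 0 in every setting of the 6 planned comparisons, except 1 (Pold2) for XmO against XX_Paf without XmO 2, so that its leave-outs ranged from 0 to 1. For the contrast over both karyotypes, added after seeing the data, it was 1 (Cdkn1a), but 0 without the filter, without the intensity trend and without XpO 18 and XX_InX 1 together, and 0 to 1 over the leave-outs (0 without XpO 18). A lone array left in a group was assumed to vary like the other groups.

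Class medians (log2) that moved by more than the replicate SD were these. For XmO against XX_Paf, averaging over probe sets gave -0.15 for G1/S and replication genes and -0.19 for mitotic genes, moving boundary genes gave -0.18 for mitotic genes, and their leave-outs ranged from -0.18 to -0.034. For XpO against XX_InX, leave-outs ranged from 4.61e-05 to 0.19 (G1/S and replication) and from -0.13 to 0.17 (mitotic), and leaving out XpO 18 and XX_InX 1 gave 0.19 and -0.13. For XmO against XpO, mitotic leave-outs ranged from -0.40 to -0.12, with -0.12 without both. For the difference of the monosomy effects they ranged from -0.26 to -0.046, with 0.046 without both. The cause of these shifts was not tested.

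Estimates of single genes that changed sign, with the range over leave-outs, were those of Cdc45 between the crosses (-0.082 to 0.53, and -0.15 without XpO 18 and XX_InX 1), Cdkn1a for XO against XX (-0.17 to 0.075) and XpO against XX_InX (-0.15 to 0.35, and -0.030 without both), and Mcm4 for XO against XX (-0.16 to 0.048, and 0.044 without both), XmO against XX_Paf (-0.39 to 0.022) and XpO against XX_InX (-0.13 to 0.27). Ccng1 (-0.18 to 0.45, and -0.18 without both) and Prim1 (-0.031 to 0.29) did so for XmO against XpO, Pold2 for XpO against XX_InX (-0.036 to 0.50), and Mki67 (-0.019 to 1.24) and Plk1 (-0.0022 to 0.49) for the difference of the effects.

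Over all probe sets, calls without a filter numbered 5 for XO against XX, 4 within the Paf cross, 7 within the In(X) cross, 3 between the monosomic groups, 17 between the XX groups, 5 for the difference and 6 over both karyotypes. Without the intensity trend they numbered 0 for the difference, 2 for XX_Paf against XX_InX and 1 over both karyotypes, where the stricter filter gave 22, leaving out XpO 15 gave 105 and leaving out XpO 18 gave 1. XmO against XpO gave 7 without XpO 15 and 0 without XpO 18 and XX_InX 1.

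XmO and XX_Paf share the replicate numbers 1 and 2, whose arrays did not deviate together (correlations of deviations -0.0123 and -0.0415). With the replicate number as a block, 4 arrays and 1 residual degree of freedom, 0 members and 1 probe set passed, and Pold2 had -1.14. For the other comparisons no paired fit could be made, since their groups share fewer than 2 numbers. Changes below a log2 of 1 were not simulated, and 11 of the 51 members were at or below the Y-linked background on some or all arrays.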
